A study of Homo sapiens with 10 samples.

Results

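Stand-alone lncRNA promoters are the 5′ ends of long non-coding RNA (lncRNA) genes that lie away from protein-coding transcript starts. Genes of type lncRNA on chromosomes 1 to 22 were taken from the GENCODE release 44 annotation of hg19 (GRCh37), and a gene was kept when its 5′ end lay more than 5 kb from every protein-coding transcript start. The rule kept 13040 of 18229 lncRNA genes, 3587 with a gene symbol and 9453 with an Ensembl ID only. Starts of other transcript types of coding genes did not count, and 12031 lncRNA genes remained when they did. Each promoter was the 2 kb window reaching 1 kb to either side of the 5′ end, and a factor was counted there when a deposited peak overlapped the window by at least 1 bp. They were set beside 19229 promoters of protein-coding genes. The windows of 1203 members overlapped each other, so the members made 12417 separate stretches of DNA. The members' starts lay a median of 53.8 kb from the nearest coding start. Just inside the 5 kb limit, at 5 to 6 kb, 29.5% of 322 members had an RNA polymerase II (Pol II) peak, and just outside it, at 4 to 5 kb, 35.0% of 346 left-out genes had one.

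The data are ChIP-seq peak lists from untreated HCT116, a human colorectal carcinoma cell line in long use, in a series of 10 libraries with 1 library per antibody. Peak lists of 5 antibodies were used: total Pol II (the N-20 antibody), KAP1, Larp7, Hexim1 and Cdk9. The series asks how KAP1 and the 7SK snRNP relate to Pol II at promoters. The libraries for H3K27ac, H3K4me1, H3K4me3, Ser5P Pol II and input were not analysed here. On chromosomes 1 to 22 the lists held 91692 Pol II, 60660 KAP1, 182444 Larp7, 227631 Hexim1 and 118666 Cdk9 peaks; read depth is unknown, and with no replicate library every interval below covers counting error only. The labels call the cells colonic endothelial. Pol II peaks lay at 7 of 12 epithelial marker promoters (EPCAM, CDH1, CLDN7, KRT8, KRT18, KRT19 and CDX2) and not at GPA33, ELF3, VIL1, KRT20 and LGALS4. They lay at 4 of 11 endothelial marker promoters (EGFL7, ESAM, ERG and CLDN5) and not at CDH5, KDR, TEK, TIE1, VWF, EMCN and ROBO4. Over all coding promoters the share was 71.8%, so neither list was occupied more often than coding genes at large.

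Pol II starts transcription at a promoter and often pauses a short way into the gene. The kinase P-TEFb, whose catalytic subunit is Cdk9, releases paused Pol II into elongation. The 7SK snRNP is the particle that stores P-TEFb in an inactive form: Larp7 binds and stabilises the 7SK RNA, and Hexim1 is the protein that inhibits the kinase. KAP1 (TRIM28) is a chromatin-bound co-regulator best known for silencing retroelements together with KRAB zinc finger proteins. LncRNAs are transcribed by Pol II like messenger RNAs, but many are made at low levels and in few cell types, and those away from coding genes share no promoter with a coding neighbour.

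Promoters of 5 members are printed here as examples of the kinds of promoter found below. They were named for high folds and need not be typical of their kind. Each sequence runs 5′ to 3′ on the gene's own strand of GRCh37 and holds the 250 bases before the gene and its first 50 bases, and capitals mark every CG dinucleotide. Capitals are denser in the first 4 than in the last. NORAD (chr20:34638891-34639190, minus strand) and DANCR (chr4:53578242-53578541, plus strand) carried all 5 factors. LINC00467 (chr1:211555828-211556127, plus strand) had a strong Pol II peak and no KAP1. LINC01780 (chr1:119869772-119870071, plus strand) had KAP1 and no Pol II. LINC00523 (chr14:101123337-101123636, plus strand) had Larp7 and Hexim1 without Pol II, KAP1 or Cdk9.
NORAD: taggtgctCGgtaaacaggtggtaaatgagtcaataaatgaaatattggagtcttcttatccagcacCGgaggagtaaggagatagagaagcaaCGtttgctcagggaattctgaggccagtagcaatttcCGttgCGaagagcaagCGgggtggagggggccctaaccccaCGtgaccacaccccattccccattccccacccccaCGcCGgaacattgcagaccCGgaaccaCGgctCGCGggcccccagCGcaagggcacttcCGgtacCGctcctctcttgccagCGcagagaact
DANCR: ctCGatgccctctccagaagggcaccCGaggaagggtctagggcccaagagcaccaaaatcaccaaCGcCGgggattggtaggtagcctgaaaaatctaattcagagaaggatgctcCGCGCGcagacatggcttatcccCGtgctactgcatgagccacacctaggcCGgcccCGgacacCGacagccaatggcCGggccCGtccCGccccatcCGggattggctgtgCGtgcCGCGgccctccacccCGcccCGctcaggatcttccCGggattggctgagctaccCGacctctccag
LINC00467: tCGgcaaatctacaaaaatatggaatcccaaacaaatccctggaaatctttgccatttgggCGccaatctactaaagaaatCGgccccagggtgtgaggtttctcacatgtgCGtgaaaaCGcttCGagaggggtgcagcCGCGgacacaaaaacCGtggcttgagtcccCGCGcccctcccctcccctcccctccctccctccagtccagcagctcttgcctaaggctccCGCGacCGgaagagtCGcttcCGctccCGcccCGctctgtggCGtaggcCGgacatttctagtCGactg
LINC01780: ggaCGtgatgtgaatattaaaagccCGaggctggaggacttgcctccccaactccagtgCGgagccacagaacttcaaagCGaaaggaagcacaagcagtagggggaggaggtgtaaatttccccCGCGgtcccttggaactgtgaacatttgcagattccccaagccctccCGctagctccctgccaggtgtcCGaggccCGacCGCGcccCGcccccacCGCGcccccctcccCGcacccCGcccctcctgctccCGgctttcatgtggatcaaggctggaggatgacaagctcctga
LINC00523: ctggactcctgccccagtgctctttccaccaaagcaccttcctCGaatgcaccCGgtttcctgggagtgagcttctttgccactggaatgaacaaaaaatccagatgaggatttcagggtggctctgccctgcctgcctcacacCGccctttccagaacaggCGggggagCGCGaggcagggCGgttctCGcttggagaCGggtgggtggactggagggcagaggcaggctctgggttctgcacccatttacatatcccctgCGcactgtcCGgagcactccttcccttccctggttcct
These stretches hold 17 CG dinucleotides at NORAD, 22 at DANCR, 21 at LINC00467, 17 at LINC01780 and 11 at LINC00523.

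Most stand-alone lncRNA promoters carried none of the 5 factors, whereas most coding promoters carried all of them. Pol II was present at 2288 lncRNA promoters (17.5%, exact 95% interval 16.9 to 18.2) and at 71.8% of coding promoters (71.2 to 72.5). Over all 61221 annotated gene promoters of any type the share was 37.1%. KAP1 was present at 2209 lncRNA promoters (16.9%, 16.3 to 17.6) and at 66.2% of coding promoters, against 34.7% over all gene promoters. Larp7 was at 31.5% of lncRNA promoters and 76.4% of coding promoters, with 48.3% over all. Hexim1 was at 34.9% of lncRNA promoters and 79.9% of coding promoters, with 52.5% over all. Cdk9 was at 22.7% of lncRNA promoters and 70.5% of coding promoters, with 40.2% over all. All 5 factors met at 1612 lncRNA promoters (12.4%, 11.8 to 12.9) and 11821 coding promoters (61.5%, 60.8 to 62.2), against 30.1% over all. None was present at 7568 lncRNA promoters (58.0%, 57.2 to 58.9) and 3306 coding promoters (17.2%, 16.7 to 17.7), against 41.8% over all. The lncRNA minus coding difference was -54.3 percentage points for Pol II, -49.3 for KAP1, -47.8 for Cdk9, -45.0 for Hexim1 and -44.9 for Larp7, and the intervals of the 2 groups overlapped for none of them.

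**Figure D1:**
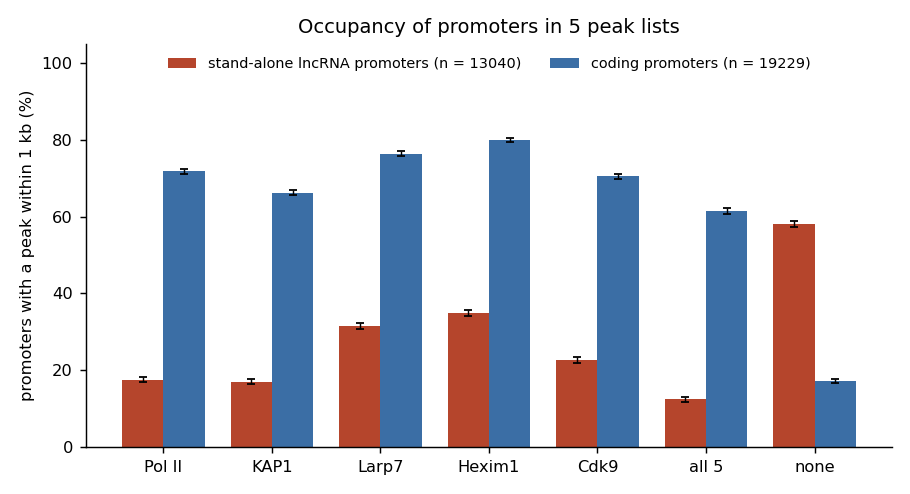
Share of promoters (%, vertical axis) with a peak of each factor, of all 5 or of none, for stand-alone lncRNA promoters (red, left) and coding promoters (blue, right); bars carry exact 95% binomial intervals. Every factor is at 34.9% or less of lncRNA promoters and at 66.2% or more of coding promoters, and the order turns round for promoters with none, 58.0% against 17.2%.

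The excess of peaks at the lncRNA starts over their own surroundings differed between the factors. Windows of the same length 15 kb from the members' starts were kept where they lay over 5 kb from every protein-coding and lncRNA start. Members were not filtered for other lncRNA starts. Pol II was in 4.89% of the 21224 flank windows kept, so the members' share was 3.59 times that of these flanks. The ratio was 3.03 for KAP1, 2.09 for Cdk9, 1.75 for Larp7 and 1.57 for Hexim1, and 4.37 for all 5 factors together. Hexim1 was present in 22.2% of the flank windows. A window with Larp7, Hexim1 or Cdk9 but neither Pol II nor KAP1 made up 20.3% of the members (19.7 to 21.0) and 21.6% of the flank windows (21.0 to 22.1). As a share of all windows, this class was therefore no more frequent at lncRNA starts than beside them. Windows with Pol II or KAP1, which fall outside the class, were more frequent at the members. Among windows lacking both, 2653 members were in the class and 7568 had none of the 5 factors. For the flank windows these counts were 4582 and 15068. Among such windows the class was therefore somewhat more frequent at the members. KAP1 without Pol II was at 4.07% of members and 2.53% of flank windows. Along the gene axis, the 1 kb bin just past the start held Pol II at 14.2% of members against a median of 5.86% in bins 10 to 20 kb away, a ratio of 2.42. For coding genes the same values were 69.4% and 12.7%, a ratio of 5.47.

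**Figure D2:**
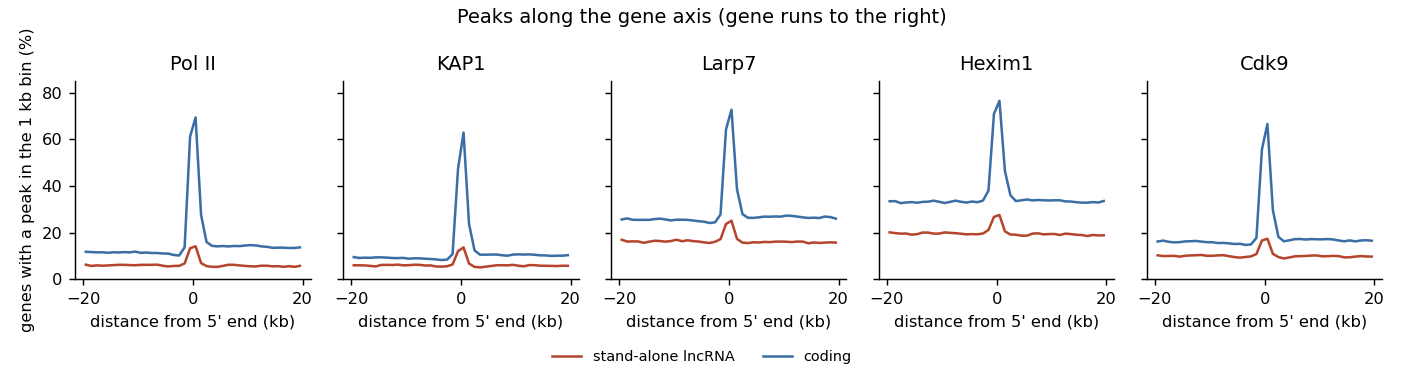
Share of genes (%, vertical axis) with a peak in each 1 kb bin by distance from the 5′ end (kb, horizontal axis, gene running to the right), 1 panel per factor, stand-alone lncRNA genes in red and coding genes in blue. The lncRNA curves peak at the start with 14.2% for Pol II and 27.6% for Hexim1, over flanks of 5.86% and 19.4%, and the coding curves stand above them at every distance.

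Occupied lncRNA promoters held partial combinations more often than occupied coding promoters. Of the 5472 lncRNA promoters with at least 1 factor, 29.5% had all 5, against 74.2% of the 15923 occupied coding promoters. Hexim1 alone made up 753 of them (13.8%, against 2.42% of occupied coding promoters). Larp7 with Hexim1 and nothing else made up 681 (12.4%, against 2.83%), Larp7 alone 465 (8.50%, against 1.31%) and Larp7, Hexim1 and Cdk9 without Pol II or KAP1 349 (6.38%, against 1.84%). The full 7SK set with KAP1 but without Pol II made up 334 (6.10%, against 2.47%). The same set with Pol II but without KAP1 made up 214 (3.91%, against 4.22%). Pol II with no other factor was rare in both groups, at 78 lncRNA promoters (1.43%) and 0.955% of occupied coding promoters. KAP1 with no other factor was found at 34 lncRNA promoters. Of the lncRNA promoters without Pol II, 22.1% had Hexim1, 18.9% had Larp7, 10.2% had Cdk9 and 4.94% had KAP1, an order that follows the lengths of the lists.

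**Figure D3:**
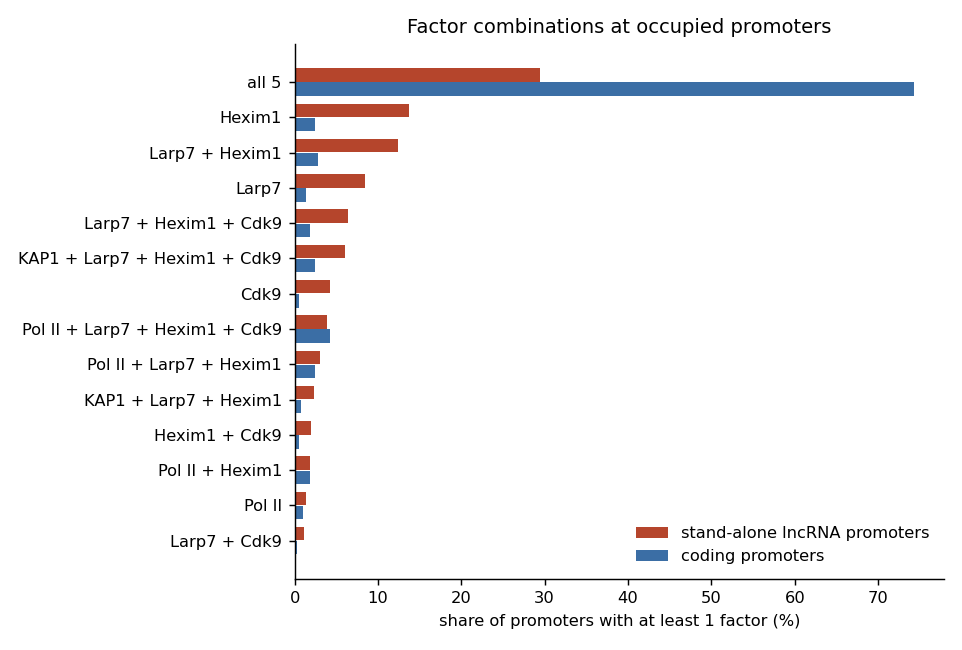
Share of promoters with at least 1 factor (%, horizontal axis) that carry each exact combination, for stand-alone lncRNA promoters (red, upper bar) and coding promoters (blue, lower bar); the 14 most frequent combinations at lncRNA promoters are shown. All 5 factors make up 29.5% of occupied lncRNA promoters and 74.2% of occupied coding promoters, and Hexim1 alone 13.8% and 2.42%.

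KAP1 went with Pol II at lncRNA promoters, though less completely than at coding promoters. KAP1 was present at 1678 of the 2288 lncRNA promoters with Pol II (73.3%, 71.5 to 75.1) and at 88.1% of coding promoters with Pol II. Without Pol II it was present at 531 of 10752 lncRNA promoters (interval 4.54 to 5.37%) and 10.4% of coding promoters. Among lncRNA promoters with Pol II, Hexim1 was present at 95.2%, Larp7 at 90.8% and Cdk9 at 81.4%, against 98.6%, 95.4% and 91.5% at coding promoters with Pol II. Where Pol II and KAP1 met, the full set of Larp7, Hexim1 and Cdk9 was found at 96.1% of lncRNA promoters and 97.1% of coding promoters. With Pol II alone of the pair this share was 35.1% and 40.9%, with KAP1 alone of the pair 62.9% and 69.7%, and with neither 3.41% and 6.04%. In the full lists, the 7SK set was thus nearly as frequent at lncRNA as at coding promoters once Pol II and KAP1 were both there. With peaks of a −log10 q of at least 5, the counts were 77 of 301 lncRNA promoters and 1844 of 4828 coding promoters. At that threshold the share was thus clearly lower at lncRNA promoters.

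The KAP1 share was also read within classes of Pol II fold, the deposited enrichment of a peak relative to background. At a Pol II fold below 5, KAP1 was present at 53.9% of 330 lncRNA promoters (48.4 to 59.4) and 73.3% of coding promoters. At 5 to 10 it was at 73.5% and 79.8%, at 10 to 20 at 66.5% and 75.5%, and at 20 to 40 at 81.2% and 85.2%. At 40 to 80 it was at 91.1% and 94.6%. At a fold of at least 80 it was at 102 of 107 lncRNA promoters (95.3%, 89.4 to 98.5) and 97.9% of coding promoters. The difference in the KAP1 share, lncRNA minus coding, was -14.8 points overall and -7.92 points within the Pol II fold classes. For Larp7 it was -4.60 and -0.842 points, and for Cdk9 -10.1 and -4.11 points.

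The lncRNA windows were poor in CpG, and occupancy followed the CpG content in both groups. The observed over expected CpG ratio of the 2 kb window had a median of 0.236 at lncRNA promoters and 0.616 at coding promoters. A ratio below 0.2 was found at 37.6% of lncRNA promoters and 11.6% of coding promoters. There Pol II was present at 1.43% of lncRNA promoters (1.11 to 1.80) and 6.34% of coding promoters. Between 0.4 and 0.6 it was at 54.2% (51.7 to 56.7) and 83.3%, and between 0.6 and 0.8 at 82.6% (79.7 to 85.3) and 97.0%. At a ratio of at least 0.8 it was at 104 of 122 lncRNA promoters (85.2%, 77.7 to 91.0) and 99.1% of coding promoters. All 5 factors were at 0.265% of lncRNA and 2.10% of coding promoters in the lowest class, and at 77.0% of lncRNA and 96.9% of coding promoters in the highest. When promoters were compared within classes of CpG ratio 0.05 wide, the lncRNA minus coding difference was -11.8 points in the Pol II share, -9.97 in the KAP1 share and -8.22 in the all-5 share. The KAP1 difference among Pol II promoters was then -5.79 points. LncRNA promoters with all 5 factors had a median CpG ratio of 0.538 and those with none 0.189, while those with KAP1 and no Pol II had 0.351.

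**Figure D4:**
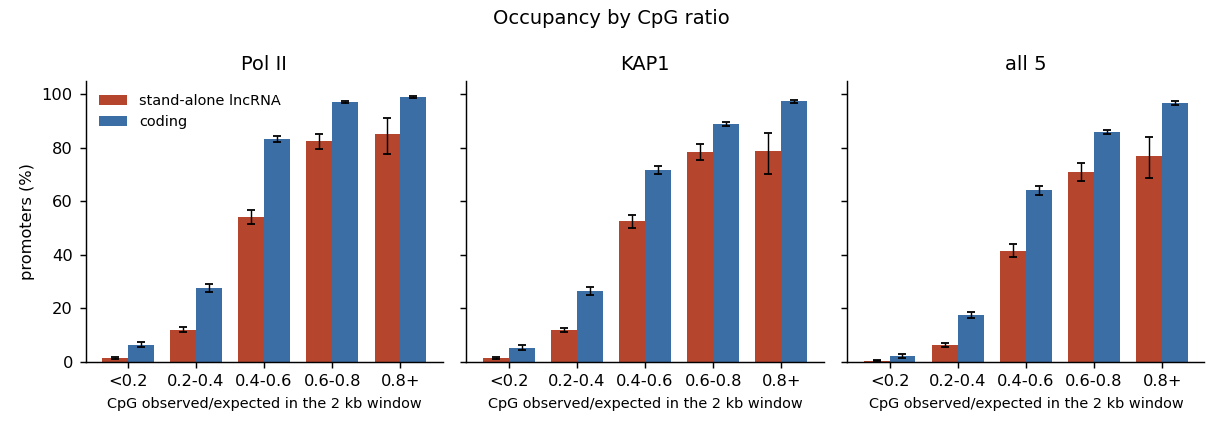
Share of promoters (%, vertical axis) with Pol II, KAP1 or all 5 factors by the observed over expected CpG ratio of the 2 kb window (horizontal axis), for stand-alone lncRNA promoters (red, left) and coding promoters (blue, right) with exact 95% intervals. Pol II reaches 1.43% and 6.34% in the lowest class and 85.2% and 99.1% in the highest, and coding promoters are higher in every class.

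Pol II peaks at lncRNA promoters were weaker and narrower than at coding promoters. Their median fold was 8.27 (quartiles 5.80 and 22.2) at lncRNA promoters and 39.6 (13.3 and 69.9) at coding promoters, and the median width was 397 bp and 784 bp. Within CpG classes the gap varied in size. At a ratio below 0.2 the median Pol II fold was 5.43 at lncRNA promoters and 6.41 at coding promoters, and at 0.2 to 0.4 it was 6.33 and 8.27. At 0.4 to 0.6 it was 7.87 at lncRNA promoters and 24.5 at coding promoters, at 0.6 to 0.8 it was 20.3 and 44.8, and at a ratio of at least 0.8 it was 35.9 and 62.2. The other lists, in another peak layout, differed less. The median KAP1 fold was 4.33 at lncRNA promoters and 4.84 at coding promoters, the Larp7 fold 4.21 and 4.83, the Hexim1 fold 4.63 and 6.97, and the Cdk9 fold 3.88 and 4.60. Folds are read within 1 list only.

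The place of the Pol II summit also differed. At lncRNA promoters 54.3% of summits lay downstream of the 5′ end (52.2 to 56.3) and the median offset was 38 bp, whereas at coding promoters 74.6% lay downstream and the median offset was 101 bp. The quartiles of the lncRNA offsets were -289 and 371 bp. A summit within 250 bp of the 5′ end was found at 40.9% of lncRNA promoters and 60.1% of coding promoters. Among peaks with a fold of at least 20, the downstream share was 58.9% at lncRNA promoters and 76.8% at coding promoters. How far the annotated lncRNA 5′ ends are the starts used in HCT116 cells was not tested. In genes of at least 10 kb with Pol II at the promoter, a Pol II peak also lay 2 to 10 kb into 26.6% of 926 lncRNA genes (23.7 to 29.5) and 29.7% of coding genes. With KAP1 at the lncRNA promoter the share was 27.6%, and without it 23.0% (17.4 to 29.3), intervals that overlap. From 2 kb to the 3′ end of genes of at least 4 kb, a Pol II peak lay in 47.1% of 1335 lncRNA genes (44.4 to 49.8) and 65.2% of coding genes, whose median lengths were 17.9 kb and 35.5 kb. There the share was 46.7% with KAP1 at the lncRNA promoter and 48.4% (42.8 to 54.1) without it, again with intervals that overlap. No share for genes without Pol II at the promoter is given. Over all members, Pol II was in the bin 2 to 3 kb downstream at 5.70% and 2 to 3 kb upstream at 5.80%. Whether the peaks inside the genes come from Pol II that started at the promoter was not tested.

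Occupancy varied with where the lncRNA gene lay. All 5 factors were present at 20.5% of members 5 to 10 kb from a coding start, 17.3% at 10 to 20 kb, 14.7% at 20 to 50 kb, 10.4% at 50 to 100 kb and 7.36% (6.61 to 8.16) beyond 100 kb. Pol II followed the same order, with 31.7% at 5 to 10 kb and 9.48% beyond 100 kb. KAP1 among the Pol II promoters was higher farther away, with 66.7% (62.1 to 71.2) at 5 to 10 kb, 65.7% at 10 to 20 kb, 76.7% at 20 to 50 kb, 77.9% at 50 to 100 kb and 80.4% (76.3 to 84.1) beyond 100 kb. Beyond 100 kb more members had KAP1 (11.3%) than had Pol II (9.48%), and at 5 to 10 kb fewer did (24.2% against 31.7%). Members that start inside a coding gene on its own strand had KAP1 at 52.5% of their 162 Pol II promoters (44.5 to 60.4), against 76.9% outside coding genes and 68.1% inside on the opposite strand. Without strand in ChIP peaks, Pol II of the host gene and of the lncRNA cannot be told apart inside coding genes, on either strand.

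Some classes of lncRNA gene were occupied far more often than the 17.5% of all members. Host genes, whose introns or exons hold snoRNAs or microRNAs and whose symbols end in HG, had Pol II at 41 of 81 promoters (50.6%, 39.3 to 61.9) and all 5 factors at 42.0%. Their median CpG ratio was 0.471, against 0.236 over all members. Genes with LINC symbols had Pol II at 17.5%, genes with antisense (-AS) symbols at 22.6% and genes with only an Ensembl ID at 16.0%. Where another lncRNA started within 1 kb, Pol II was present at 46.9% of 875 members, against 15.4% of the others, and the median CpG ratio was 0.437 against 0.231. A pseudogene start within 1 kb went with Pol II at 44.1% of 533 members, against 16.4% without one, and the median CpG ratio was 0.472 against 0.233. Members with 5 or more annotated transcripts had Pol II at 28.5%, against 15.1% of those with 1, and the median CpG ratio was 0.275 against 0.229. By chromosome the Pol II share ran from 10.3% of members on chromosome 4 to 36.6% on chromosome 19 and 29.0% on chromosome 22.

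Short motifs were searched on both strands in the 300 bases around the 5′ end, from 250 before to 50 after it; a match is a description and not a bound site. The ETS motif CCGGAAG, read by the ETS family of activators, was found at 8.81% of lncRNA promoters with all 5 factors (7.47 to 10.3), at 1.47% of lncRNA promoters with none and at 14.5% of coding promoters with all 5. The share over all promoters of the same length was 3.05% for lncRNA and 11.9% for coding genes. The AP-1 motif TGANTCA went the other way. It was found at 6.27% of lncRNA promoters with all 5 factors (5.13 to 7.56), 13.6% of those with none and 3.89% of coding promoters with all 5, with 11.7% over all lncRNA and 6.38% over all coding promoters. TATAAA, the TATA box, was found at 6.82% of lncRNA promoters with all 5 factors, 23.6% of those with none and 5.96% of coding promoters with all 5, with 18.9% over all lncRNA and 11.0% over all coding promoters. CCAAT was found at 28.0%, 40.8% and 33.3% of the same 3 classes, with 36.9% over all lncRNA and 35.5% over all coding promoters. The E-box CACGTG was found at 8.50%, 3.53% and 9.75% of them, with 4.82% over all lncRNA and 8.20% over all coding promoters. The CRE motif TGACGTCA was found at 2.05%, 0.238% and 2.73%, with 0.606% over all lncRNA and 2.28% over all coding promoters. The printed NORAD promoter holds an ETS match that begins at base 13 of the gene and, before the gene, an E-box at -80, a CCAAT match at -206 and an AP-1 match at -224 (bases from the 5′ end). DANCR holds 4 CCAAT matches, and LINC00467 has an ETS match at -14 and a CCAAT match at -187. The 6 motifs differ in base composition, as do the classes.

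NORAD led the members with all 5 factors by KAP1 fold. NORAD, an abundant lncRNA that sequesters PUMILIO proteins, lies 40.5 kb from the nearest coding start, and its promoter is the first printed above. Its Pol II fold was 166, its KAP1 fold 9.22, its Larp7 fold 7.49, its Hexim1 fold 15.8 and its Cdk9 fold 7.68. Its KAP1 fold stood at the 99.954th percentile of the KAP1 list and its Hexim1 fold at the 99.99th percentile of the Hexim1 list, and its peaks are shared with the neighbouring start of ENSG00000234139. DANCR, a lncRNA linked to the undifferentiated state of progenitor cells, shared its peaks with the start of LINC01618 and had a Pol II fold of 133, with KAP1 at 7.02, Larp7 at 4.37, Hexim1 at 9.94 and Cdk9 at 5.22. High KAP1 folds were found with both high and low Pol II folds. LINC03009 had a KAP1 fold of 8.81 with a Pol II fold of 64.9, whereas LINC02125 had 8.49 with 6.33, LINC01002 8.06 with 7.94 and LINC01535 7.75 with 4.60. LINC02564, whose 5′ end lies at base 11103 of chromosome 18, had a KAP1 fold of 7.39 and a Pol II fold of 8.78, and LINC01608 had 7.26 and 6.44. UBE2Q2P1 and LINC00933, which share 1 peak (KAP1 fold 7.83, Pol II fold 39.0), GTF2IRD1P1 (7.38 and 46.4) and FAM86EP (7.24 and 77.5) complete the 12. UBE2Q2P1, GTF2IRD1P1 and FAM86EP are named as pseudogenes, whose near-identical copies make the placing of reads uncertain.

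Strong Pol II without KAP1 was uncommon. The read-through locus of SUGT1P4-STRA6LP and SUGT1P4-STRA6LP-CCDC180 had a Pol II fold of 97.5 with Larp7 at 4.40, Hexim1 at 7.93 and Cdk9 at 3.17. LINC00467, whose sequence is printed above, had a Pol II fold of 68.2 with Larp7 at 3.90 and Hexim1 at 5.80 and no Cdk9 peak. Its CpG ratio was 0.724, against a median of 0.357 over the members with Pol II and no KAP1. LINC00888 had the same combination, with a Pol II fold of 66.4, and LINC02882 had 66.5 with Cdk9 at 4.18. TALAM1, the antisense partner of MALAT1, had a Pol II fold of 60.2 and a Hexim1 fold of 3.70 only. Its 5′ end at 65274903 on chromosome 11 lies inside MALAT1 (65265111 to 65275544, plus strand), so this Pol II peak cannot be assigned to either gene. The members with a symbol of highest fold among those with Pol II and no other factor were NSUN5P2 (17.9), GPRC5D-AS1 (17.1), NSUN5P1 (16.3) and LERFS (15.3), and the NSUN5 pseudogenes again have near-identical copies.

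The median KAP1 fold was 3.94 at the 531 lncRNA promoters without Pol II (quartiles 3.56 and 4.41) and 4.45 at the 1678 with it (3.98 and 5.07), so the quartile ranges overlap. Among those with a symbol and no Pol II, LINC01780 was highest, with a KAP1 fold of 6.57, Larp7 at 3.93, Hexim1 at 5.32 and Cdk9 at 4.26. LINC02457 followed at 6.06, LINC02281 and LINC02327, which share 1 peak, at 5.87, LINC00298 at 5.55 and LINC00701 at 5.46. Every one of these 6 had Larp7 and Hexim1, and LINC02457, LINC00298 and LINC00701 had no Cdk9 peak. Over all 531, Larp7 was at 89.1%, Hexim1 at 91.1% and Cdk9 at 64.8%. Among the 1434 members with Hexim1 but no Pol II, KAP1 or Cdk9, LINC00523 had the highest Hexim1 fold of those with a symbol, 7.52, with Larp7 at 4.32. LINC02417 followed at 6.88, LINC01374 at 6.42, ATP11AUN at 6.35, LINC02681 at 6.30 and LINC01446 at 6.02. All 6 also had a Larp7 peak, as did 681 of the 1434.

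The microRNA and snoRNA host genes were the longest list. Of its 31 members 24 had Pol II, 22 had KAP1, 21 had all 5 factors and 3 had none, where the shares over all members were 17.5%, 16.9%, 12.4% and 58.0%. The median Pol II fold of the 24 was 73.5, against 8.27 over all members with Pol II. The list's median CpG ratio was 0.631, against 0.236 over all members. The snoRNA hosts SNHG29, SNHG12, SNHG7, SNHG15 and SNHG6 had Pol II folds of 156, 138, 122, 116 and 116 with KAP1 folds of 5.01, 5.26, 5.68, 3.68 and 5.03. SNHG32 (110), SNHG25 (95.8), SNHG5 (77.3), SNHG16 (55.7) and SNHG17 (50.2) also had all 5 factors. SNHG8 had a Pol II fold of 59.7 with neither KAP1 nor Cdk9, and SNHG30 had 19.2 without KAP1. MIR17HG, the host of an oncogenic microRNA cluster, had a Pol II fold of 80.9, KAP1 at 5.72, Larp7 at 5.35, Hexim1 at 10.7 and Cdk9 at 6.71. MIR31HG had a Pol II fold of 86.4 and KAP1 at 5.63, with the highest Cdk9 fold of any member, 10.4, and Hexim1 at 14.3. MIRLET7BHG (Pol II 77.5, KAP1 6.85), MIR210HG, a hypoxia-induced host (83.4 and 4.74), and DLEU2 (69.6 and 4.78) had all 5 factors too. MIR194-2HG, host of an intestinal microRNA, had a Pol II fold of 10.0 and a KAP1 fold of 3.51. MIR155HG, best known from blood cells, had 11.0 and 4.46. MIR181A1HG, MIR181A2HG and MIR29B2CHG had no peak within 1 kb of the gene's 5′ end. When the starts of all annotated transcripts counted, 29 of the 31 had Pol II, against 19.04% of all members. The genes gained were MIR137HG, MIR29B2CHG, MIR4435-2HG, MIR124-2HG and SNHG14. Genes with more annotated transcripts have more starts counted under this rule.

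Of 9 members on the nuclear body and architectural list, 7 had Pol II, 7 had KAP1 and 6 had all 5 factors, where the shares over all members were 17.5%, 16.9% and 12.4%. NEAT1, the scaffold RNA of paraspeckles, had a Pol II fold of 88.1 with KAP1 at 3.42, Larp7 at 4.31, Hexim1 at 7.84 and Cdk9 at 6.15. MALAT1, an abundant RNA of nuclear speckles, had a Pol II fold of 43.5 at its 5′ end with KAP1 at 3.32, Larp7 at 3.28, Hexim1 at 8.26 and Cdk9 at 5.60. The KAP1 folds of these neighbours lay below the median of 4.33 of members with KAP1. KCNQ1OT1, an imprinted antisense RNA that silences genes in cis, had a Pol II fold of 118 and KAP1 at 4.88, and CHASERR, which acts in cis on CHD2, had 27.5 and 3.42. THRIL had a Pol II fold of 5.17 with Hexim1 and Cdk9 and no KAP1 or Larp7. MEG3, an imprinted lncRNA, had KAP1 at 4.89 with Larp7, Hexim1 and Cdk9 and no Pol II at its annotated 5′ end, and MIAT had no peak there. Both had Pol II at the start of another transcript.

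Of 20 members on the cancer and colon list, 8 had Pol II, 7 had all 5 factors and 5 had none, where the shares over all members were 17.5%, 12.4% and 58.0%, and the median Pol II fold of the 8 was 32.2. PVT1, the neighbour of MYC, had a Pol II fold of 98.9 with KAP1 at 4.72, Larp7 at 5.22, Hexim1 at 8.74 and Cdk9 at 7.38. ELFN1-AS1, a lncRNA described in colorectal tumours, had a Pol II fold of 98.6 and KAP1 at 4.95 at a CpG ratio of 0.369. PCAT7 (33.0 and 4.72), LINC00511 (31.3 and 5.96), CASC15 (13.7 and 4.84) and LINC00261 (3.56 and 3.95) also had all 5 factors. UCA1 had Pol II alone, with a fold of 12.1 at a CpG ratio of 0.245. The colon cancer locus genes CCAT2, CASC8 and CASC19, and CYTOR, had no peak. H19, imprinted and highly expressed in the fetus, had Larp7 at 4.70, Hexim1 at 5.26 and Cdk9 at 3.34 at its annotated 5′ end, and gained Pol II and KAP1 when all transcript starts were counted.

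Of 5 members on the p53-induced list, NEAT1, PVT1 and MIR34AHG had all 5 factors, against 12.4% of all members. MIR34AHG, host of a microRNA that p53 induces, had a Pol II fold of 4.53 and KAP1 at 3.84. LINC01629 had Hexim1 only, at 3.08, and PURPL had no peak. Of 20 members on the other-tissue list, chosen for expression in tissues other than colon, 4 had Pol II, 3 had all 5 factors and 7 had none. The shares over all members were 17.5%, 12.4% and 58.0%. The 4 were MIR9-1HG, with a Pol II fold of 25.2 and no KAP1, SOX1-OT (6.85), MIR1-1HG (6.33) and PEG13 (4.21). The lncRNAs DLX6-AS1, LINC-ROR, BANCR, PWRN2, LINC00901, TCL6 and MIAT had no peak at their annotated 5′ ends. At annotated 5′ ends the list's Pol II share, 4 of 20, lay near the 17.5% of all members. When the starts of all annotated transcripts counted, 7 of the 20 had Pol II, against 19.04% of all members. MIR137HG, MEG9 and MIAT were the genes gained.

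**Figure D5:**
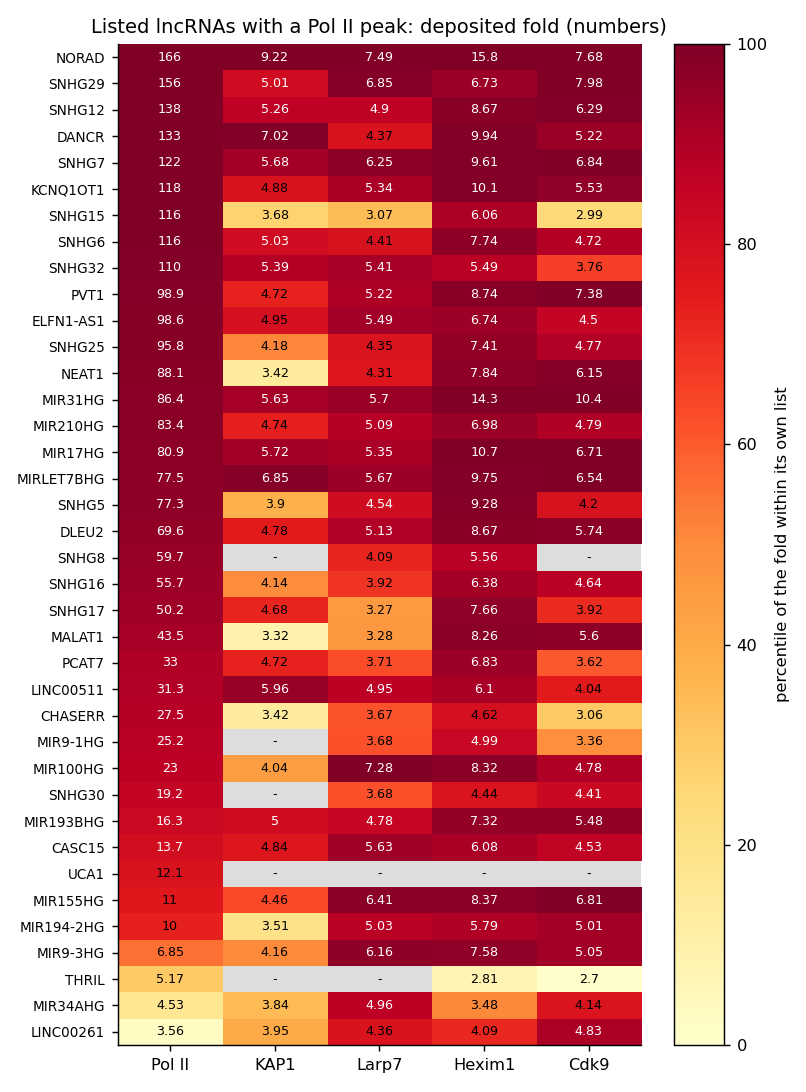
Deposited fold (numbers in cells) of lncRNAs with a Pol II peak, in order of Pol II fold, with 1 column per peak list. Shown are the cancer and colon, the nuclear body and architectural, and the microRNA and snoRNA host lists. Colour gives the percentile of the fold within its own peak list (0 to 100) and a dash on grey marks no peak. NORAD heads the rows with a Pol II fold of 165.83 and is dark in every column, while UCA1 has a value for Pol II only.

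The lncRNA and coding groups kept their order at stricter thresholds, with far fewer members. With peaks of a −log10 q of at least 5, all 5 factors were at 77 lncRNA promoters (0.590%) and 9.59% of coding promoters. NORAD, SNHG12, SNHG7, MIR31HG, MIR17HG, MIRLET7BHG, MIR193BHG, LINC03009, LINC02125 and LINC02564 were among the 77, and DANCR, PVT1, NEAT1 and MALAT1 were not. KAP1 among Pol II promoters was then at 15.2% of lncRNA (13.6 to 16.9) and 36.3% of coding promoters. With each list cut to its 20000 peaks of highest −log10 p, all 5 factors were at 1.23% of lncRNA and 17.0% of coding promoters, and KAP1 at 41.3% and 65.4% of Pol II promoters.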

How the data were processed

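Each of 10 ChIP-seq libraries of HCT116 cells had its own antibody or was input, with no replicates, and the deposited peak lists of 5 were used. The submitters' processing notes name Bowtie 1.1, hg19 and MACS2. The control used, duplicate handling, depth and calling settings: not given in the sources used here. The authors' Pol II list has the narrow peak layout with summits, and the others the broad layout. The deposited fold is a ratio to background made by the authors. The −log10 p and −log10 q were used as deposited for filters, and the deposited score was not used.

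Windows, overlaps and CpG ratios were computed with Python 3.11.15, pandas 2.3.3, numpy 2.4.6 and pysam 0.24.0 from GENCODE release 44 on GRCh37, and exact (Clopper-Pearson) 95% intervals with scipy 1.17.1. The strongest overlapping peak gave a promoter's fold. Overlap counting was tested on simulated data. There is no p-value, since each group rests on 1 library per antibody, and the intervals describe counting error only. Differences within classes weight the classes by their number of lncRNA promoters. Peak width and fold are set by read depth and calling settings, so folds were read within a list.

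The members, gene lists and comparisons were chosen with earlier results of these data known. Genes were named, among members with a symbol, by highest KAP1 fold with all 5 factors (12), highest Pol II fold without KAP1 (6), highest KAP1 fold without Pol II (6), highest Hexim1 fold without Pol II, KAP1 and Cdk9 (6) and highest Pol II fold alone (4), and by the 5 lists; other names were picked after their values were seen. Alternatives were stricter peaks, equal list lengths, other windows, distances and gene sets.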

Additional observations from a re-analysis of the deposited data

How the results depend on the processing

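Of the 10 results, the differences between groups kept their sign under every alternative. The others are plain shares, which have no sign to change. Of 100 values, 20 stayed within the counting interval of the reported value and 80 moved beyond it. Values moved by more than 1.5 times only with the 2 stricter peak sets. Differences are lncRNA minus coding unless said otherwise. With peaks of a −log10 q of at least 5, the lncRNA shares were Pol II 15.2%, KAP1 2.59%, Larp7 12.4%, Hexim1 17.5%, Cdk9 1.60%, all 5 factors 0.590% and none of them 78.5%, while the all-5 difference was -9.00 points, the KAP1 difference among Pol II promoters was -21.1 points and the KAP1 difference between lncRNA promoters with and without Pol II was 14.9 points. With 20000 peaks per list, the lncRNA shares were Pol II 6.67%, KAP1 6.75%, Larp7 7.48%, Hexim1 8.37%, Cdk9 6.48%, all 5 factors 1.23% and none of them 84.7%, while the all-5 difference was -15.8 points, the KAP1 difference among Pol II promoters was -24.2 points and the KAP1 difference between lncRNA promoters with and without Pol II was 37.0 points. With windows of 500 bp on each side, the lncRNA shares were Pol II 14.9%, KAP1 14.3%, Larp7 25.7%, Hexim1 28.0%, Cdk9 18.4%, all 5 factors 10.2% and none of them 66.3%, while the all-5 difference was -47.3 points. With the peak middle required inside the window, the lncRNA shares were Pol II 16.7%, KAP1 14.9%, Larp7 25.4%, Hexim1 27.9%, Cdk9 19.4%, all 5 factors 8.48% and none of them 62.0%, while the all-5 difference was -40.6 points and the KAP1 difference between lncRNA promoters with and without Pol II was 62.7 points. For members over 10 kb from coding starts, the lncRNA shares were Pol II 15.9%, KAP1 16.1%, Larp7 30.0%, Hexim1 32.9%, Cdk9 21.3%, all 5 factors 11.4% and none of them 60.1%, while the all-5 difference was -50.0 points. With the distance taken from every transcript of coding genes, the lncRNA shares were Pol II 16.6%, Larp7 30.5%, Hexim1 33.8% and none of them 59.3%. For members outside coding genes, the lncRNA shares were Pol II 18.2%, KAP1 18.5%, Cdk9 23.6% and all 5 factors 13.5%, while the all-5 difference was -48.0 points, the KAP1 difference among Pol II promoters was -11.2 points and the KAP1 difference between lncRNA promoters with and without Pol II was 71.4 points. With overlapping lncRNA windows merged, the lncRNA shares were Pol II 16.4%, KAP1 15.9%, Larp7 30.5%, Hexim1 33.9%, Cdk9 21.7%, all 5 factors 11.4% and none of them 58.9%, while the all-5 difference was -50.0 points. Coding windows were not merged there. Without members that have a small RNA or pseudogene start within 1 kb, the lncRNA shares were Pol II 16.2%, KAP1 15.8%, Larp7 30.2%, Hexim1 33.6%, Cdk9 21.4%, all 5 factors 11.3% and none of them 59.3%, while the all-5 difference was -50.2 points. With the start of any transcript counted, the lncRNA shares were Pol II 19.04%, KAP1 18.6%, Larp7 34.4%, Hexim1 37.9%, Cdk9 25.1%, all 5 factors 13.6% and none of them 54.9%, while the all-5 difference was -56.3 points. The last 2 alternatives were chosen after seeing the data. No paired analysis was possible because each antibody had 1 library and no replicate numbers are shared. Depth per library is unknown, so a promoter without a peak had no detectable enrichment at these settings rather than none. The lists differ in length, and 1203 members share windows and so count the same peaks more than once.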

Other observations

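LncRNA genes whose 5′ end lies within 5 kb of a coding start, left out of the members, had Pol II at 72.2% of 5189 promoters (71.0 to 73.4), KAP1 at 65.9%, all 5 factors at 61.3% and none at 14.3%, shares within a few points of the coding promoters. Within 1 kb of a coding start Pol II was at 87.7% of 3395, at 1 to 2 kb at 57.8% of 661, and at 2 to 3 kb at 33.6% of 441, with no further drop to 4 to 5 kb (35.0%). The highest Pol II fold of any member, 166.35, just above the 165.83 of NORAD, belonged to ENSG00000289222 on chromosome 16, which has no symbol and had a KAP1 fold of 5.64. Of the 107 members with a Pol II fold of at least 80, 60 had a symbol, against 3587 of all 13040 members.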
